A study of Rattus norvegicus with 10 samples.

Results

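Introns are the stretches of a gene that are transcribed into the precursor RNA and then spliced out. RNA found inside them can come from precursor RNA that is not yet spliced, from intron lariats or retained introns, from an alternative start or end of the host gene, or from a separate gene that runs on either strand. Total RNA depleted of ribosomal RNA, unlike poly(A)-selected RNA, keeps precursor and non-polyadenylated RNA, so an assembler given such reads builds transcripts inside introns. The intronic assembled transcripts of rat liver described here are the rows of the deposited isoform table that carry the comparison code i, which marks an assembled transcript lying within an intron of a reference gene, and a name that begins with MSTRG. There were 2755 of them among 51430 isoforms (5.36%), which was 11.8% of the 23390 isoforms that the assembly added to the reference. They lay in 1560 host gene names. The level of a host was the summed FPKM (sequenced fragments per kilobase of transcript, after scaling for library size) of its reference, contained, junction-sharing and overlapping isoforms.

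Livers came from wild type Wistar rats and were sampled as 5 libraries after sleeve gastrectomy (SG), an operation that reduces the stomach to a narrow sleeve, and 5 libraries after a sham operation (SHAM). All rats, SHAM included, had been fed for 4 weeks on a diet with 60% of calories from fat and then given 1 dose of 35 mg/kg streptozotocin, which destroys pancreatic beta cells, after a 16 h fast. They entered the groups with fasting glucose over 16.7 mmol/L at 3 days after that dose. The time after surgery is labelled as 3 months for SG and is not labelled for SHAM, so a difference in time and the operation cannot be told apart. The labels do not tie each library to its own rat, and p-values therefore measure the spread between these libraries, which may be technical. Total estimated counts were 77617460 to 92110190 for SG libraries and 65824088 to 85520959 for SHAM libraries. Intronic assembled transcripts took 2.58% to 2.90% of these counts in SG libraries and 2.41% to 3.05% in SHAM libraries, and between 2500 and 2539 of them were above 0 in an SG library, against 2489 to 2519 in a SHAM library.

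The liver label was checked against marker genes of 10 cell types, each list summed in FPKM. Hepatocyte markers summed to 35292 to 49854 in SG and 33484 to 46285 in SHAM, and all 8 were detected. Kupffer cell and macrophage markers summed to 163 to 361 in SG and 139.6 to 321 in SHAM, endothelial markers to 38.8 to 54.0 in SG and 28.4 to 58.8 in SHAM, and stellate cell markers to 11.4 to 25.2 in SG and 8.55 to 16.1 in SHAM. Cholangiocyte markers summed to 2.71 to 7.57 in SG and 1.95 to 6.69 in SHAM, T cell markers to 8.63 to 18.03 in SG and 8.07 to 19.9 in SHAM, and B and plasma cell markers to 19.6 to 63.5 in SG and 5.52 to 24.4 in SHAM. Red blood cell markers summed to 20.6 to 92.3 in SG and 44.6 to 219.8 in SHAM, the smooth muscle marker Myh11 stood at 0.37 to 1.0 in SG and 0.19 to 0.32 in SHAM, and stomach and pancreas markers summed to 1.20 to 2.43 in SG and 0.91 to 4.27 in SHAM. Krt7 and Prss1 had means under 0.1 FPKM. In bulk tissue, fewer cells of a type and less RNA per cell cannot be told apart. The part of the red blood cell, B and plasma cell and smooth muscle markers in the results was not tested.

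The genome build of the deposited coordinates, Rnor_6.0, was not used as sequence here, so the letters of the intronic transcripts are not printed. The promoters of host genes can be shown from RefSeq tables of the GRCr8 assembly. The 7 hosts whose intronic transcript followed them most closely over the libraries, where both averaged at least 1 FPKM (Ssr1, Cflar, Adcy9, Fras1, Crot, Acsm5 and Pgpep1, described further on) all had 1 promoter in those tables, and 9 short motifs were searched for on both strands in the 250 bases before the start of each. The motifs were chosen after the pairs were known. They were the palindromic E-box CACGTG, the TATA box as TATAAA, the box bound by NF-Y as CCAAT, a half-site of HNF1 as GTTAAT, a word of the C/EBP family as TTATGTAA, the word CAAAGTCCA bound by HNF4A and the nuclear receptor word TGACCTTTG, with the full HNF1 palindrome and the endoplasmic reticulum stress element searched as well. CACGTG stood in 3 of the 7 windows, against 5.59% of all 33469 promoters of the same length. CCAAT, whose letters also open the stress element, was in the Crot window and in 34.02% of all promoters. The other 7 motifs were in none of the 7 windows, and this says only that these letters are not there. A match is a description of letters and not a binding site. The 3 windows with CACGTG are printed 5′ to 3′ on the strand of the gene, with the match in capitals, because they belong to the hosts of 3 of these 7 pairs. The match began 128 bases before the start in Ssr1, 178 in Fras1 and 143 in Acsm5.
Ssr1 promoter: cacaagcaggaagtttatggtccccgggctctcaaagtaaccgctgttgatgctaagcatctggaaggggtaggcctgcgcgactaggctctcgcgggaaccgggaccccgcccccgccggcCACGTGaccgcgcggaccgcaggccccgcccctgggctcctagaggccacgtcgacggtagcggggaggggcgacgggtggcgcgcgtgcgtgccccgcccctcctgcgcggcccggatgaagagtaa
Fras1 promoter: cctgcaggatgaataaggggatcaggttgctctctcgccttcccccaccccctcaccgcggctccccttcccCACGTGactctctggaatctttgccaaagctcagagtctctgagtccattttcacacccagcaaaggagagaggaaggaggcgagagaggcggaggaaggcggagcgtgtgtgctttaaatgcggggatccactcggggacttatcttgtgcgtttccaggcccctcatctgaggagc
Acsm5 promoter: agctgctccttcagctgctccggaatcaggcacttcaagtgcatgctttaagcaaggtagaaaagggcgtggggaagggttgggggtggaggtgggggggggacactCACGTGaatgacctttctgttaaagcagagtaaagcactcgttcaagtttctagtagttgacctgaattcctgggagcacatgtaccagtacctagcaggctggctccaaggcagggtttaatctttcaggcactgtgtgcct

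Most intronic transcripts had 1 exon and, where strands could be compared, most ran against their host. Single-exon models numbered 1698 (61.6%) and multi-exon models 1057 (38.4%), of which 801 had 2 exons. The most exons in a member was 11. Of the 93 members with 5 or more exons, 83 lay in a single host, AC099449. A host row was present for 2650 members and absent for 105, and 2628 members lay inside the span of their host's rows while 22 lay outside it. The strand was opposite to the host in 1238 members and the same in 471, could not be compared in 919, and was undefined in 22 whose host has rows on both strands.

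Among the 1709 members with both strands known, 72.4% were opposite. That share was 80.6% of 674 single-exon models and 67.1% of 1035 multi-exon models, or 62.7% of the 861 multi-exon models outside AC099449. Multi-exon models carry splice sites that set their strand, and all of them had one. Single-exon models had none in 1009 of 1698 cases. The sources used here do not say whether the libraries kept strand, so reads from a host and from a transcript antisense to it cannot be told apart by the counting. Code i takes in transcripts on either strand inside an intron, while an assembled transcript that overlaps host exons on the opposite strand has a separate code (975 isoforms, called antisense below).

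**Figure D1:**
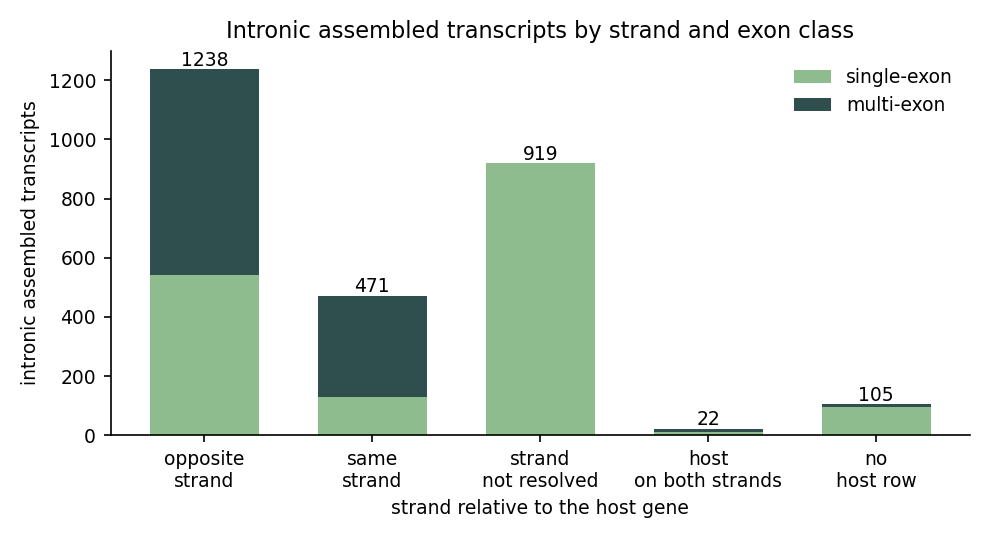
Number of intronic assembled transcripts (vertical axis) by strand relative to the host gene (horizontal axis), with single-exon models in light and multi-exon models in dark colour. Opposite strand was the most frequent relation (1238 members) and all 919 members whose strand could not be compared had 1 exon.

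The members were spread over the genome and over many hosts. A single member was found in 1054 hosts, at least 2 in 506 and at least 5 in 75. Chromosome 1 held 459 members, the most of any chromosome, 174 of them in AC099449. RefSeq listed 1368 of the host names, 1365 of them as protein-coding. The middle of a member lay at a median of 41.6% of the host span from the host's start, with quartiles at 20.2% and 67.1%, so members stood somewhat nearer the start than the end of their hosts. None of the 2755 members overlapped any of the 1960 small RNA rows of the table. Those rows were microRNA, small nucleolar, small Cajal body and small nuclear RNA genes, and genes named by the number of an Rfam RNA family. Overlap with a reference row can bring another code in place of i. This absence may therefore follow from how members were selected and is not a finding about them. Only 88 members shared an assembled locus with isoforms of the classes counted in hosts. Whether those isoforms carried the name of the member's own host was not checked. The same span was carried on both strands by 2 members in 7 cases.

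Members were weakly expressed and narrow in range. The median over members of the mean FPKM was 1.15, with quartiles at 0.74 and 1.72. Single-exon members had a median of 1.14 and multi-exon members of 1.16. Only 36 members averaged 10 FPKM or more, and 3 stood at 0 in every library. The filter for testing, a value above 0 in at least 5 libraries and a mean of at least 0.1 FPKM, was passed by 2551 members (92.6%), and 2142 were above 0 in every library. Median length was 1948 nt, 1095 nt for single-exon and 3861 nt for multi-exon models. Single-exon members on the opposite strand were long (median 5362 nt) and those without a strand were short (median 614 nt).

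By comparison, the median level of assembled transcripts between genes was 0.90 FPKM for single-exon and 1.004 FPKM for multi-exon models. That of antisense transcripts was 1.38 FPKM, with a wider spread (90th percentile 13.3 FPKM, against 2.71 FPKM for intronic members). Reference isoforms had the lowest median of these classes, 0.40 FPKM, and a far wider range. These medians are descriptions over transcripts of the same libraries.

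**Figure D2:**
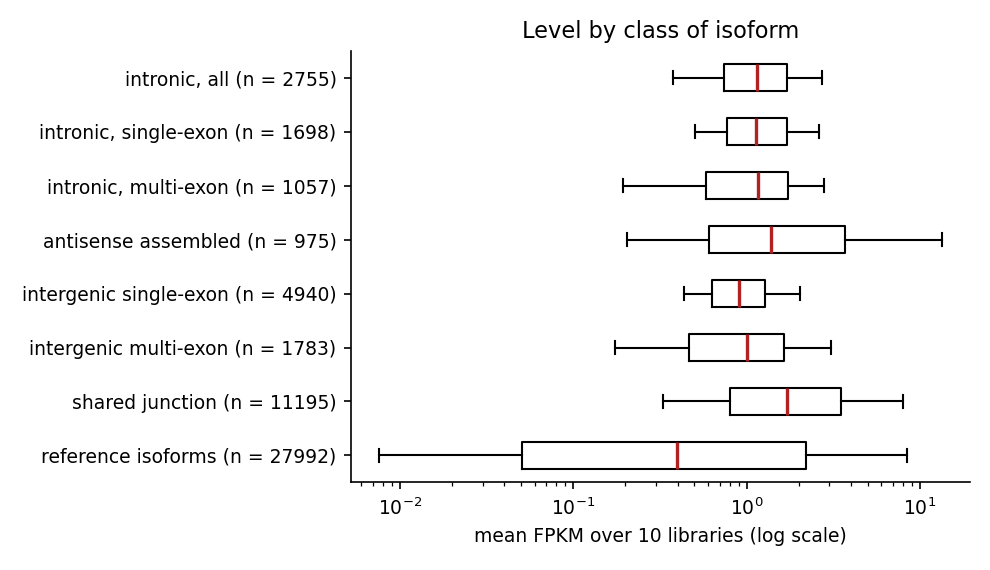
Mean FPKM over 10 libraries on a log axis for each class of isoform. The line is the median, the box spans the quartiles and the whiskers the 10th and 90th percentiles. Intronic members had a median of 1.15 FPKM and a narrower spread than antisense transcripts (median 1.38) or reference isoforms (median 0.40).

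Relative to the host, most members were minor. Over the 1951 members that passed the filter in a host of at least 1 FPKM (called pairs below), the median ratio of member to host level was 0.15, and 42 members (2.15%) exceeded their host. The ratio was lower in hosts of higher level. It had a median of 0.48 in hosts of 1 to 3 FPKM, 0.23 at 3 to 10, 0.10 at 10 to 30, 0.031 at 30 to 100 and 0.012 in hosts of at least 100 FPKM. The median member level over the same bins was 0.94, 1.29, 1.53, 1.58 and 2.88 FPKM. Host level is the denominator of the ratio, so the ratio falls wherever member levels vary less than host levels. Across the 1951 pairs the Spearman correlation of member level and host level was 0.32, a description over pairs that share libraries.

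The member with the highest level lay in Crp, which encodes C-reactive protein, an acute phase protein made by hepatocytes. MSTRG.6787.1 is a single exon of 408 nt (chr13:91081908-91082315, Rnor_6.0) on the strand of Crp, at 70.1% of its span. It had 255, 225, 229, 221 and 193 FPKM in SG 1 to SG 5, against 227, 170, 170, 158 and 174 FPKM in SHAM 1 to SHAM 5. The groups overlapped through SHAM 1, which exceeded SG 2, SG 4 and SG 5, while every SG library exceeded the other SHAM libraries. Its log2 fold change was 0.26 ± 0.13 (SE; unadjusted p = 0.0839, adjusted p = 1 in edgeR), beside 0.17 for Crp itself on summed counts, which averaged 2054 FPKM.

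Next in level were members of liver enzyme genes and some members whose level exceeded that of their host. MSTRG.2596.1, a 285 nt single exon on the strand opposite to Dock8, a guanine nucleotide exchange factor best known from immune cells, averaged 42.8 ± 5.37 FPKM in SG and 39.4 ± 7.21 FPKM in SHAM (both SD, n = 5 each), 5.10 times the level of its host. MSTRG.8781.1, 2 exons opposite to Mat1a, the liver enzyme that makes S-adenosylmethionine, averaged 38.4 ± 4.82 FPKM in SG and 40.1 ± 18.6 FPKM in SHAM, where SHAM 2 stood at 70.4 and SHAM 3 at 20.8. MSTRG.7237.2, 2 exons over 13171 nt opposite to the glucuronosyltransferase gene Ugt2a3, averaged 29.2 ± 5.26 FPKM in SG and 30.5 ± 6.03 FPKM in SHAM. None of these 3 differed between the groups by more than the spread within them.

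MSTRG.6702.1, a single exon opposite to the uridine-cytidine kinase gene Uck2, had 36.4, 30.5, 27.5, 30.6 and 39.6 FPKM in SG and 30.4, 0.82, 22.3, 16.4 and 30.1 FPKM in SHAM, so that SHAM 2 nearly lacked it. Members of the cytochrome P450 genes Cyp2c6v1 and Cyp2c7 had 2 exons, ran opposite to their hosts and were small beside them. MSTRG.1475.3 averaged 24.8 ± 6.09 FPKM in SG and 27.3 ± 10.6 FPKM in SHAM, 0.023 of the level of Cyp2c6v1. MSTRG.1484.3 averaged 30.8 ± 6.99 FPKM in SG and 19.7 ± 10.7 FPKM in SHAM, 0.032 of the level of Cyp2c7. The Cyp2c genes are close copies of each other, so the assembler could have split reads between them and these values are uncertain. MSTRG.9116.1, 2 exons opposite to Fgl1, a secreted fibrinogen-like protein of the liver, averaged 24.0 ± 15.5 FPKM in SG, with 51.2 in SG 2, and 22.0 ± 6.38 FPKM in SHAM.

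A few members were far above their hosts. MSTRG.18706.1, a 760 nt single exon opposite to Oscp1, a gene named for an organic solute carrier partner, averaged 27.7 ± 2.68 FPKM in SG and 24.9 ± 4.001 FPKM in SHAM, 20.3 times the level of Oscp1. MSTRG.2739.4 in LOC100911660 averaged 11.4 ± 4.21 FPKM in SG and 16.1 ± 11.1 FPKM in SHAM, 12.1 times its host. Its assembled locus also holds isoforms of the classes counted in hosts. Prtfdc1, a relative of the purine salvage gene Hprt1, held a pair of neighbouring single-exon members on its own strand at 11.3 and 11.1 times its level. The first, MSTRG.10148.1, had 9.53, 0.28, 6.44, 17.1 and 14.8 FPKM in SG and 13.7, 7.67, 0.30, 25.4 and 45.1 FPKM in SHAM. The second, MSTRG.10149.1, had 10.4, 0.26, 5.40, 16.9 and 15.9 FPKM in SG and 15.5, 7.99, 0.48, 22.7 and 42.4 FPKM in SHAM. Both were nearly absent from SG 2 and SHAM 3 and were highest in SHAM 5, so the same libraries were low and high for these neighbours. MSTRG.21562.1 in AC096473 was listed at 0 in SG 3 and at 7.76 to 10.2 FPKM in the other SG libraries, against 4.27 to 11.8 FPKM in SHAM, and was 5.15 times its host.

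Hosts with many members differed in make-up. AC099449 (chr1:215908955-215969536, the stretch its members cover) held 174 members, all with more than 1 exon, 155 on the plus and 19 on the minus strand, in 3 assembled loci. Only 122 of them passed the filter and 57 were above 0 in every library. Their levels ran from 0.0023 to 11.7 FPKM with a median of 0.45. The host has no reference row of its own in the table, and its level of 51.9 FPKM comes from assembled isoforms. Isoforms that share 1 locus share reads by estimate, so single values in this locus are uncertain. The other hosts with most members were Cyp2c6v1 (15), Sik3, a salt-inducible kinase (14), the transcription factor Nfib (12) and the transcription factor Klf12 (11).

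The coupling of member and host over libraries was measured as the Spearman correlation of their FPKM over the 10 libraries. Members tended to follow their hosts, but loosely. The median rho of the 1951 pairs was 0.35, with quartiles at 0.07 and 0.60, and 80.4% were positive. The median was 0.38 on the opposite strand (1056 pairs), 0.39 on the same strand (392 pairs) and 0.22 where the strand was not resolved (487 pairs). Multi-exon and single-exon members had medians of 0.35 and 0.33. Members under 1000 nt had a median of 0.20, those of 1000 to 5000 nt of 0.35 and those of at least 5000 nt of 0.41, so the short members without strand and the low rho went together, and the part of length in the strand difference was not tested. Across host levels the medians were 0.22 at 1 to 3 FPKM, 0.37 at 3 to 10, 0.41 at 10 to 30, 0.28 at 30 to 100 and 0.35 at 100 or more. Antisense transcripts, which overlap host exons, had a median of 0.32 over 667 pairs.

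**Figure D3:**
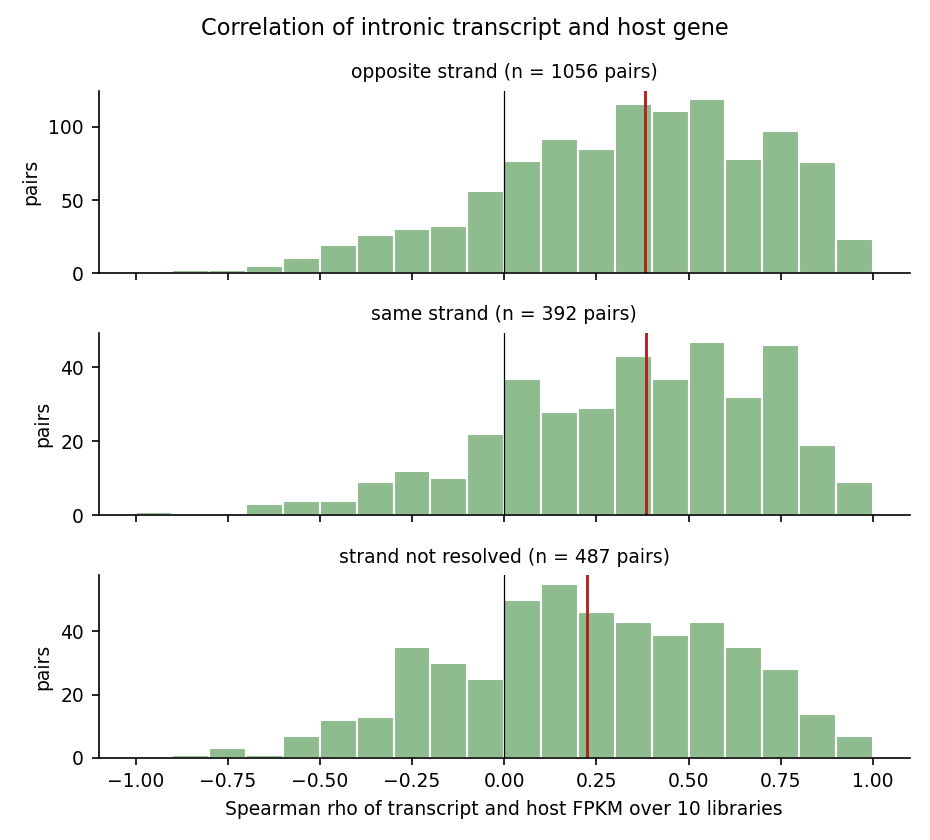
Number of pairs by Spearman rho of intronic transcript and host FPKM over 10 libraries, for members opposite to the host, on its strand, and with strand not resolved. The red line is the median (0.38, 0.39 and 0.22) and the black line is 0.

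Levels that move with a whole library enter these values. With each library's median over pairs subtracted, the median rho was 0.31, and on deviations from the group means, where a difference between SG and SHAM does not enter, it was 0.37. Consecutive members along the genome in the same host (905 pairs of neighbours, without AC099449) had a median rho of 0.42, against 0.09 for consecutive members in different hosts (1503 pairs of neighbours). In AC099449 the 121 consecutive pairs had a median of 0.21.

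Under a two-sided permutation test with 100000 permutations, Benjamini-Hochberg adjusted over all 2618 intronic and antisense pairs, 49 intronic pairs passed at an adjusted p of 0.05 (2.51%), against 2.9% of all pairs tested. Of these, 48 were positive and 1 negative, against 2.86% and 0.0382% of all pairs. By relation, 31 of 1056 opposite-strand pairs, 10 of 392 same-strand pairs and 8 of 487 pairs without strand passed, in 37 hosts in all. At an unadjusted p under 0.05 there were 423 intronic pairs (21.7%; 407 positive, 16 negative), against 21.3% of all pairs, of which 20.6% were positive and 0.688% negative. Pearson's r on log2(FPKM + 0.1), tested likewise, passed in 151 intronic pairs (7.74%), against 8.1% of all pairs, and 41 of the 151 were among the 49. On deviations from group means 95 pairs passed, 34 of them among the 49. The count depends on single libraries. It was 10 without SG 2 and 19 without SHAM 2, between 27 and 32 without any of SG 1, SG 3, SG 4, SHAM 1, SHAM 3, SHAM 4 or SHAM 5, and 33 without SG 5, each in 9 libraries.

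The closest followers above 1 FPKM were in Ssr1 and Cflar. Ssr1 encodes a subunit of the translocon-associated protein complex of the endoplasmic reticulum. Its member MSTRG.9633.1 (chr17:27516998-27519861), a 2864 nt single exon without strand, had 5.40, 2.90, 3.65, 3.92 and 3.97 FPKM in SG and 4.56, 3.04, 4.46, 2.79 and 2.49 FPKM in SHAM. Ssr1 itself had 37.5, 22.2, 24.5, 28.6 and 28.7 FPKM in SG and 32.2, 24.1, 34.5, 23.0 and 21.4 FPKM in SHAM. SG 1 was highest and SHAM 5 lowest in both, and the groups overlapped. The rho of the pair was 0.98 (permutation p = 4e-05, adjusted p = 0.015) and r was 0.97 (permutation p = 2e-05, adjusted p = 0.00476), or 0.96 without the 2 libraries farthest from the median host level.

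Cflar encodes cFLIP, an inhibitor of caspase activation at death receptors. MSTRG.23740.1 (chr9:65541312-65548348), a single exon of 7037 nt opposite to it, had 2.64, 2.69, 1.89, 3.24 and 2.40 FPKM in SG and 3.54, 2.06, 1.81, 2.82 and 2.66 FPKM in SHAM. Cflar had 10.6, 10.7, 9.44, 11.3 and 10.1 FPKM in SG and 11.3, 8.87, 8.53, 10.7 and 10.4 FPKM in SHAM, a narrow range that the member followed. The rho of the pair was 0.98 (permutation p = 4e-05, adjusted p = 0.015) and r was 0.95 (permutation p = 1e-05, the smallest these permutations can give, adjusted p = 0.00327), or 0.99 without the 2 farthest libraries. This pair did not keep its call on TMM-scaled counts in place of FPKM, where rho was 0.26 (adjusted p = 0.735), or with the host taken from reference and contained isoforms alone, where it was 0.08 (adjusted p = 0.95).

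Adcy9, an adenylate cyclase, held the 14811 nt single exon MSTRG.3129.1 on the opposite strand, with 2.30, 1.91, 2.69, 2.29 and 2.90 FPKM in SG and 3.49, 3.10, 1.56, 1.33 and 2.50 FPKM in SHAM. The SG libraries lay inside the SHAM range. The rho of the pair was 0.96 (permutation p = 0.0001, adjusted p = 0.0167) and r was 0.93 (permutation p = 0.00014, adjusted p = 0.00873), or 0.90 without the 2 farthest libraries. With library medians subtracted this pair did not keep its call (rho 0.88, adjusted p = 0.0503). Another member of Adcy9, MSTRG.3128.1, also passed (rho 0.89, adjusted p = 0.0413). Fras1, a basement membrane protein, held the 3-exon MSTRG.7129.1 of 633 nt on its own strand. It had 4.33, 0.27, 0.52, 0.91 and 0.062 FPKM in SG and 2.25, 2.50, 1.73, 0 and 0.42 FPKM in SHAM. Fras1 spanned 2.33 to 47.3 FPKM in SG and 0.25 to 37.3 FPKM in SHAM, and the member followed it over this wide range (rho 0.96, permutation p = 0.0001, adjusted p = 0.0167). Reference and contained isoforms of Fras1 averaged under 1 FPKM, so the host level came mostly from other assembled isoforms. The pair could not be checked against reference and contained isoforms alone. Its r was 0.95 (permutation p = 1e-05, adjusted p = 0.00327), or 0.93 without the 2 farthest libraries.

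The fifth rank was shared by pairs in Crot, Acsm5 and Pgpep1, each at a rho of 0.95 (permutation p = 0.00014, adjusted p = 0.0167). All 3 members ran opposite to their hosts. Crot, the peroxisomal carnitine octanoyltransferase, spanned 23.9 to 62.6 FPKM in SG and 9.49 to 52.2 FPKM in SHAM, and its member MSTRG.16126.1 spanned 0.84 to 6.32 FPKM in SG and 0.72 to 5.6 FPKM in SHAM. There r was 0.81 (permutation p = 0.00631, adjusted p = 0.0631), or 0.76 without the 2 farthest libraries. Acsm5, a medium-chain acyl-CoA synthetase, spanned 34.7 to 170 FPKM in SG and 18.2 to 163 FPKM in SHAM, and its member MSTRG.1815.1 spanned 0.39 to 5.58 FPKM in SG and 0 to 4.52 FPKM in SHAM. There r was 0.96 (permutation p = 3e-05, adjusted p = 0.00616), or 0.97 without the 2 farthest libraries, and rho was 0.54 (adjusted p = 0.448) against reference and contained isoforms of Acsm5 alone. Pgpep1, a pyroglutamyl peptidase, spanned 20.8 to 35.7 FPKM in SG and 14.7 to 51.3 FPKM in SHAM, and MSTRG.8847.1 spanned 1.17 to 3.93 FPKM in SG and 1.15 to 5.98 FPKM in SHAM, with r at 0.91 (permutation p = 0.00038, adjusted p = 0.015), or 0.81 without the 2 farthest libraries. Crot and Acsm5 lost their call without SG 2, and Acsm5 and Pgpep1 without SHAM 2 (adjusted p = 0.0517 each). All 7 of these pairs, Ssr1 and Cflar included, lost it without both SG 2 and SHAM 5 (adjusted p 0.0785 to 0.116).

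The only negative pair that passed was in Kat6b, a histone acetyltransferase gene. MSTRG.7894.5, 2 exons over 14429 nt on the strand of Kat6b, had 1.21, 0.85, 1.31, 1.86 and 0 FPKM in SG and 0, 1.70, 0, 1.91 and 1.54 FPKM in SHAM. Kat6b had 2.33, 2.40, 2.02, 1.81 and 3.48 FPKM in SG and 3.63, 2.23, 2.82, 1.98 and 1.87 FPKM in SHAM. Kat6b has no reference row of its own in the table, and these levels come from assembled isoforms. The member was at 0 in SG 5, SHAM 1 and SHAM 3, the libraries in which Kat6b was highest. The rho of the pair was -0.90 (permutation p = 0.00097, adjusted p = 0.0391) and r was -0.93 (permutation p = 0.00037, adjusted p = 0.0149), or -0.83 without the 2 farthest libraries. The member shares an assembled locus with isoforms of the classes counted in hosts, and whether these carry the name Kat6b was not checked. Reads are divided by estimate between isoforms of a locus, and the part of this in the negative value was not tested. The call was lost on deviations from group means (rho -0.84, adjusted p = 0.0541), on TMM-scaled counts (adjusted p = 0.0609), with library medians subtracted (adjusted p = 0.104), without both SG 2 and SHAM 5 (adjusted p = 0.116), and without any 1 library other than SHAM 4 or SHAM 5 (adjusted p 0.0517 to 0.104).

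No other negative pair passed. Among pairs where the member and its host both averaged at least 1 FPKM, the next 4 in order were in Eml5, Fetub, AC099449 and Jak1. MSTRG.20156.1 in Eml5 had a rho of -0.77 (permutation p = 0.0131, adjusted p = 0.118), and its r of -0.76 (permutation p = 0.00564, adjusted p = 0.0603) was -0.50 without the 2 farthest libraries. MSTRG.5250.1 in Fetub, which encodes the liver protein fetuin-B, had a rho of -0.71 (permutation p = 0.027, adjusted p = 0.166), and its r of -0.69 (permutation p = 0.0258, adjusted p = 0.132) was -0.25 without them, so it rested on those 2 libraries. MSTRG.2166.156 in AC099449 had a rho of -0.69 (permutation p = 0.032, adjusted p = 0.181) and an r of -0.56 (permutation p = 0.0888, adjusted p = 0.264), or -0.38 without them. MSTRG.18401.1 in the kinase gene Jak1 had a rho of -0.68 (permutation p = 0.035, adjusted p = 0.189) and an r of -0.61 (permutation p = 0.0619, adjusted p = 0.209), or -0.89 without them, but a rho of 0.01 once library medians were subtracted.

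**Figure D4:**
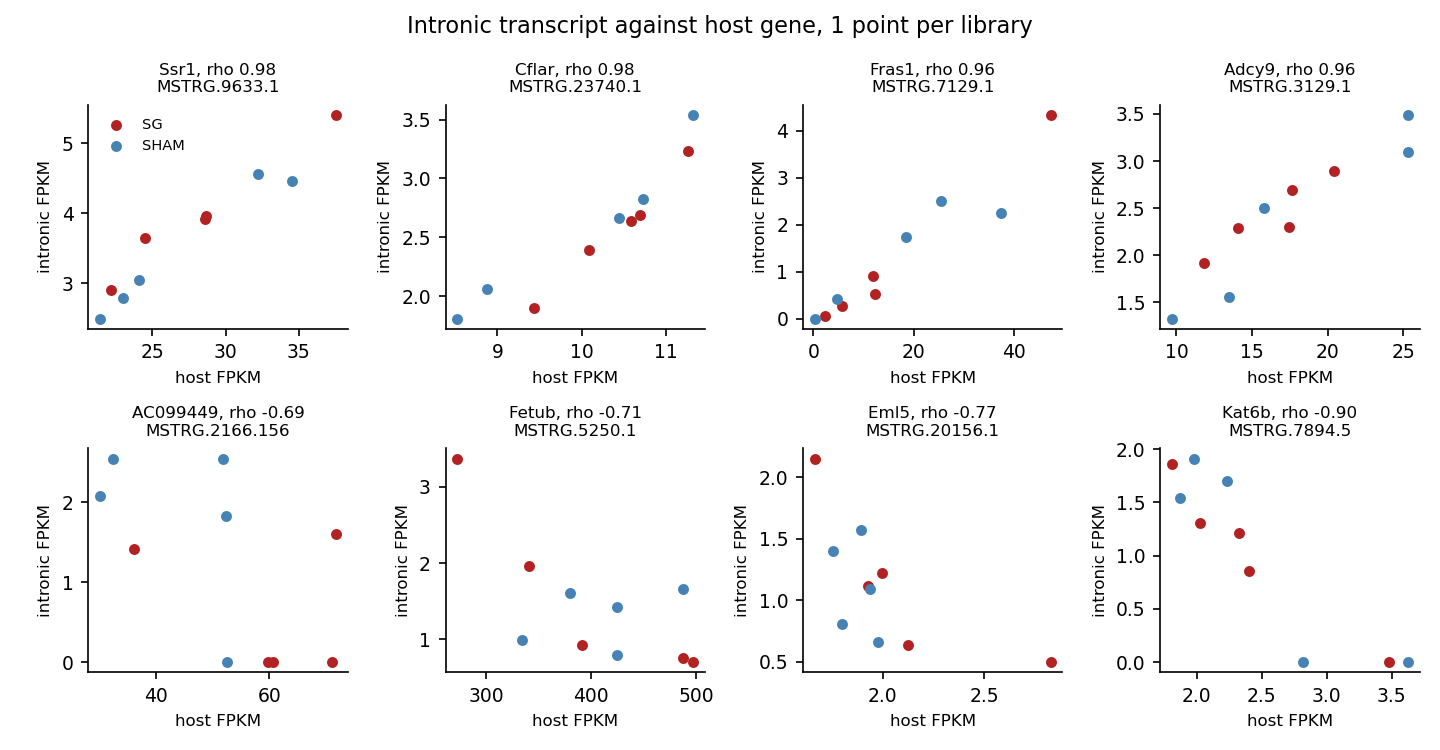
FPKM of the intronic transcript (vertical axis) against FPKM of its host (horizontal axis), 1 point per library, SG in red and SHAM in blue, for the 4 highest and the 4 lowest rho in order among pairs where both averaged at least 1 FPKM. The points of Ssr1, Cflar, Fras1 and Adcy9 rise together in both groups, and the Kat6b member is at 0 in the 3 libraries with the highest Kat6b.

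Some hosts had several members that passed. Stard13, a GTPase-activating protein, had 4 (MSTRG.5421.1, MSTRG.5425.1, MSTRG.5426.1 and MSTRG.5422.1, rho 0.89 to 0.94), and 7 hosts had 2 or more. Stard13 was picked out once its values were known. Of the 5 hosts with most members, Nfib stood highest, with a median rho of 0.78 over the 5 of its 12 members that passed the filter, of which MSTRG.18272.1 passed the test (rho 0.92, adjusted p = 0.0288). Sik3 had a median of 0.32 over 12 pairs, Cyp2c6v1 of 0.24 over 8, AC099449 of 0.21 over 122 with 5 pairs passing, and Klf12 of 0.17 over 10.

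Whether intronic transcripts differed between SG and SHAM was tested in a fit over all 39559 transcripts that passed the filter. None of the 2551 members tested passed in edgeR's quasi-likelihood test (smallest adjusted p = 0.681), and 0% of all transcripts were called. At an unadjusted p under 0.05 there were 72 members (2.82%), 29 higher (1.14%) and 43 lower (1.69%) in SG, against 4.12% of all transcripts, 2.16% higher and 1.96% lower. DESeq2 called 7 members at an adjusted p of 0.05 (0.274%, 3 higher and 4 lower), against 0.521% of all transcripts (0.298% higher and 0.222% lower), and limma on log2(FPKM + 0.1) called 0 members, against 0.00758% of all transcripts. The SG and SHAM ranges of FPKM did not overlap in 9 members (0.353%; 0.157% higher and 0.196% lower in SG), against 0.865% of all transcripts (0.69% higher and 0.174% lower). Counted in either direction, the shares of members were below those of all transcripts at the unadjusted p, in DESeq2 and by non-overlapping ranges, and both were 0 at the adjusted p in edgeR. The 95% confidence interval of a member's log2 fold change had a median half-width of 0.89. For this comparison, changes simulated in data of the same size (39559 transcripts) were called by edgeR in 14% of cases at 4-fold and in 76% at 16-fold. Smaller differences in such transcripts were therefore often not detectable. In the same simulation 6 unchanged transcripts were called. The changed transcripts were drawn from all transcripts tested and not from members alone. They had to pass a floor of mean count and be above 0 in every library. The latter holds for 2139 of the 2551 members tested, and the recovery does not describe the other members. Among those 2139 the median half-width was 0.77, beside 1.03 over all transcripts, and recovery among members alone was not measured.

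The median log2 fold change of members was -0.08, beside -0.01 over all transcripts, and 41.5% of members were positive, beside 49.2% of all. On the FPKM scale in limma the member median was 0.01, beside 0.07 over all transcripts, with 51.1% of members and 58.3% of all transcripts positive. The sign of the member median therefore depends on the scale, while the member median stood 0.06 to 0.07 below that of all transcripts on both. On log2(FPKM + 1) the gap was 0.04, with medians of 0.00066 for members and 0.04 for all transcripts. Hosts of pairs had a median of -0.0007, beside -0.01 over all 11139 genes of at least 1 FPKM.

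The member with the smallest p lay in Nedd4l, a ubiquitin ligase that targets the epithelial sodium channel. MSTRG.10736.2 (chr18:60586845-60600681), 2 exons over 10152 nt opposite to Nedd4l, had 0.31, 0.42, 0.64, 0.39 and 0.72 FPKM in SG and 1.58, 2.83, 1.45, 1.61 and 1.04 FPKM in SHAM. Every SG library was below every SHAM library. Its log2 fold change was -1.84 ± 0.31 (SE; unadjusted p = 0.000155, adjusted p = 0.681 in edgeR), and it passed in DESeq2 (adjusted p = 3.2e-05). Nedd4l itself stood at 12.7 to 18.4 FPKM in SG and 11.4 to 16.7 FPKM in SHAM (log2 fold change -0.01 in edgeR on summed counts), and their rho was -0.07 (permutation p = 0.866, adjusted p = 0.946).

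Lower values in SG were also seen in Homer1, Rcsd1 and Bbs4, none of which passed in edgeR (adjusted p = 1 for each). MSTRG.11771.1 (chr2:22911977-22915909), a 3933 nt single exon in the scaffold protein gene Homer1, had 2.18, 1.84, 1.65, 1.53 and 1.77 FPKM in SG and 2.32, 2.59, 2.71, 2.46 and 2.75 FPKM in SHAM, with no overlap. Its log2 fold change was -0.60 ± 0.15 (SE). Homer1 had a log2 fold change of -0.45 ± 0.18 (SE, adjusted p = 0.991) in edgeR on summed counts, but its summed FPKM was 6.89 ± 4.37 in SG and 7.12 ± 2.59 in SHAM (SD, n = 5 each), so the 2 scales differ for this host. MSTRG.6689.1 in Rcsd1, which encodes a partner of actin capping protein, had 0.39, 0.47, 0.45, 0.42 and 0.86 FPKM in SG and 1.74, 1.69, 0.65, 1.13 and 1.0 FPKM in SHAM (log2 fold change -1.30 ± 0.33). Here SG 5 exceeded SHAM 3, and the groups overlapped. MSTRG.22538.1 in Bbs4, a component of the ciliary BBSome, had 0.36 to 0.63 FPKM in SG and 0.71 to 1.52 FPKM in SHAM, without overlap (log2 fold change -1.19 ± 0.32). MSTRG.19460.2 in Tdrd15 was at or near 0 in all SG libraries (at most 0.00064 FPKM) but also in SHAM 1, SHAM 4 and SHAM 5, and its 0.86 and 1.31 FPKM came from SHAM 2 and SHAM 3.

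Higher values in SG had a similar pattern of low levels and wide spread, and none of these members passed in edgeR (adjusted p = 1 for each). MSTRG.2249.1 (chr1:220611573-220612146), a 574 nt exon in the sorting protein gene Pacs1, had 0.23, 0.29, 1.45, 1.82 and 1.499 FPKM in SG and 0.10, 0.088, 0.17, 0.22 and 0.15 FPKM in SHAM. The ranges did not overlap, although SG 1 and SG 2 lay close to SHAM (log2 fold change 2.69 ± 0.64). MSTRG.10196.1 (chr18:1745381-1747578), 2 exons opposite to Greb1l, had 3.96, 1.96, 0.64, 0.92 and 3.66 FPKM in SG and was at 0 in SHAM except for 0.13 FPKM in SHAM 2. MSTRG.22380.3 in Sik3 had 0.18, 0.94, 1.899, 0.11 and 0.60 FPKM in SG and at most 0.038 FPKM in SHAM. Their hosts Pacs1, Greb1l and Sik3 did not pass. Greb1l had a summed FPKM of 1.03 ± 0.27 in SG and 0.99 ± 0.36 in SHAM, and Sik3 of 11.5 ± 1.83 in SG and 10.8 ± 1.09 in SHAM (SD, n = 5 each), while edgeR on summed counts gave log2 fold changes of -0.06 for both. MSTRG.11242.1 in Exoc3l1 had 0.015 to 1.34 FPKM in SG and 0 to 0.053 FPKM in SHAM, and MSTRG.24986.1 in the glutamate receptor gene Gria3 had 0.094 to 1.39 FPKM in SG and 0 to 0.12 FPKM in SHAM, so both members overlapped. Their hosts were higher in SG without overlap. Exoc3l1 had 1.22 to 1.35 FPKM in SG and 0.90 to 1.13 FPKM in SHAM (log2 fold change 0.24, adjusted p = 0.991 in edgeR on summed counts). Gria3 had 0.517 to 0.879 FPKM in SG and 0.124 to 0.514 FPKM in SHAM, and was too low to be tested as a host.

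The DESeq2 calls were in Nedd4l, Homer1, Pacs1, Greb1l, Rcsd1, Tdrd15 and Sik3. Beside 6 of the members above, the ranges also failed to overlap in MSTRG.2166.157 of AC099449 (0.93 to 6.48 FPKM in SG and 0 to 0.29 FPKM in SHAM), in MSTRG.2166.159 of the same host (0.026 to 0.33 FPKM in SG and 0.42 to 0.83 FPKM in SHAM) and in MSTRG.17691.1 of AABR07047062 (0 to 0.38 FPKM in SG and 0.47 to 2.12 FPKM in SHAM). The AC099449 members belong to 1 locus and went in opposite directions.

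**Figure D5:**
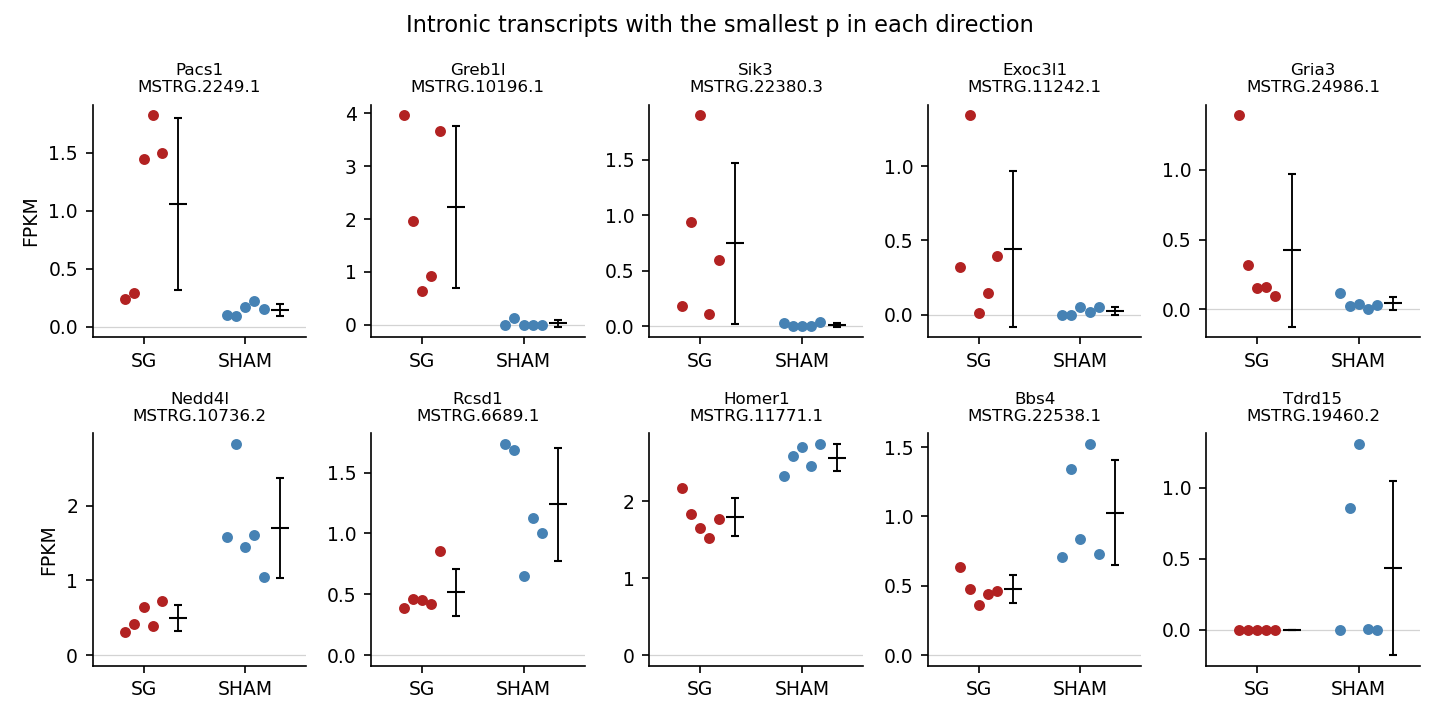
FPKM in each SG (red) and SHAM (blue) library for the 5 intronic transcripts with the smallest p in each direction, higher in SG in the upper row and lower in SG in the lower row. Bars are mean ± SD of 5 libraries. The Nedd4l member has 0.31 to 0.72 FPKM in SG and 1.04 to 2.83 FPKM in SHAM.

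Of the 117 genes in the table that belong to 6 lists of liver genes, 25 held a member (21.4%), against 7.29% of all 20226 genes. Among genes of at least 1 FPKM the share was 21.7% of 115 listed genes, against 9.85% of all 11139. The lists were chosen with earlier results of these data known, so these shares are a description and not a test. Beyond that floor, listed genes were not matched to the others for level or span, and the part of these was not tested. None of the members in listed genes passed in edgeR. The lists of hosts were plasma proteins, enzymes of urea synthesis and of amino acid breakdown, bile acid, sterol and lipid metabolism, glucose metabolism and insulin signalling, transcription factors and nuclear receptors, and drug metabolism. Of 25 plasma protein genes (23 in the table), 3 held a member, 5 members in all, with a median of 4.01 FPKM. They included 1 opposite to Cp, the copper carrier ceruloplasmin, and 1 without strand in Serpina1. The list's median rho was 0.25 and its median log2 fold change 0.59, with 0 at an unadjusted p under 0.05. Of 19 genes for urea synthesis and amino acid breakdown, 4 held 1 member each (Ass1, Aass, Acadsb and Bckdha), with a median rho of 0.35 and a median log2 fold change of -0.30. Of 26 genes of bile acid, sterol and lipid metabolism, 4 held 1 member each, among them Cpt1a, Cyp27a1 and Lipc, with a median rho of 0.65 and a median log2 fold change of -0.02.

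In that last list the member opposite to Cyp27a1, a sterol hydroxylase of bile acid synthesis, had a rho of 0.78 with its host (adjusted p = 0.109), which missed the threshold. Of 18 genes of glucose metabolism and insulin signalling (17 in the table), 6 held 15 members, among them 6 in the growth hormone receptor gene Ghr and 2 each in Foxo1, Igf1 and Insr. Insulin receptor gene members MSTRG.5430.1 and MSTRG.5431.1, both opposite to Insr, each had a rho of 0.75 (adjusted p = 0.136), and that of Irs1 one of 0.79 (adjusted p = 0.102). The list had a median rho of 0.39 over 14 pairs and a median log2 fold change of 0.38.

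Of 20 transcription factor and nuclear receptor genes, 5 held 26 members, 12 of them in Nfib, 6 in Nfia, 4 in Hnf4a, 3 in Nr1h4 and 1 in Ppara. The median rho was 0.33 over 19 pairs and the median log2 fold change -0.08. The 4 members opposite to Hnf4a, a nuclear receptor that maintains hepatocyte identity, had rho values from -0.52 to 0.30, whereas Nfia held the list's highest level, 11.8 FPKM, in MSTRG.18364.1. Of 15 drug metabolism genes, Cyp2c7 held 3 members and Aox1 and Por 1 each. All had more than 1 exon and ran opposite to the host, with a median of 7.52 FPKM and a median rho of 0.21. Their median log2 fold change was -0.67, but they went in both directions. The values ran from -0.998 in Aox1 to 0.56 in MSTRG.1484.2 and MSTRG.1484.3 of Cyp2c7. Of these 6 lists, only the transcription factors held a member at an unadjusted p under 0.05 (1 member), beside the 4.12% of all transcripts given above.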

How the data were processed

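RNA of 10 rat liver libraries (5 SG, 5 SHAM) was depleted of ribosomal RNA and read as paired ends, per the labels' protocols. Tools named in the submitters' processing notes are HISAT2 2.0.4, StringTie 1.3.4, cutadapt 1.9 and FastQC 0.10.1, with Rnor_6.0 as the build. FPKM is the unit that the file headers give for 1 set of columns the authors deposited. Their deposited estimated counts are whole numbers that run in proportion to FPKM times length, so reads shared by isoforms were divided by estimate.

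A host was the sum over its gene name of reference, contained, junction-sharing and overlapping isoforms, and its strand came from those rows. For the comparison of SG with SHAM, rounded estimated counts of 39559 transcripts (above 0 in 5 or more libraries, mean 0.1 FPKM or more) were tested in edgeR 4.0.16 under R 4.3.3, with the quasi-likelihood test, TMM scaling, two-sided p-values and Benjamini-Hochberg adjustment. Standard errors come from its F statistic. Pairs were tested with scipy 1.17.1 and numpy 2.4.6 by 100000 permutations with a fixed seed, at a host mean of 1 FPKM or more. The edgeR fit was tested on simulated data.

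Members and lists were chosen with earlier results of these data known. Named members are the 8 highest levels, the 5 smallest p in each direction, the 5 highest levels among multi-exon members and among those opposite to the host, the 5 highest and lowest rho where both means reach 1 FPKM (ties kept), the 5 hosts with most members and the 5 highest ratios to host. Members that overlap a small RNA were also to be named, and 0 did. Other members named were chosen after their values were seen, apart from those in the 6 host lists. Alternatives were DESeq2 1.42.0, limma 3.58.1 on log2(FPKM + 0.1) and on log2(FPKM + 1), other filters, scales and host definitions, a replicate block, and leaving out each library. RefSeq tables of GRCr8 gave names and promoters only. A few members of the lists are not reported here by name.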

Additional observations from a re-analysis of the deposited data

Results flagged for a closer look

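Among the 35 named members, each tested in both groups of 5 libraries, 11 of 70 groups held a library set apart from the rest of its group by Dixon's criterion. Chance gives about 1 in 20 groups only where values are normally distributed and groups are independent and unselected. These members were named largely for extreme values and share the same libraries, and some were barely detected. The 11 of 70 therefore cannot be compared with that rate, and whether there is an excess of such libraries was not tested.

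In SG, SG 2 stood apart in 3 members: MSTRG.9116.1 of Fgl1 had 51.2 FPKM there and 13.6 to 21.9 FPKM in the other SG libraries, MSTRG.11242.1 of Exoc3l1 had 1.34 FPKM against 0.015 to 0.39 FPKM, and MSTRG.19460.2 of Tdrd15 had 0.00064 FPKM against at most 0.00016 FPKM. SG 1 stood apart in MSTRG.7129.1 of Fras1 (4.33 FPKM, others 0.062 to 0.91 FPKM) and in MSTRG.24986.1 of Gria3 (1.39 FPKM, others 0.094 to 0.32 FPKM). SG 5 had 0.855 FPKM of MSTRG.6689.1 in Rcsd1, where the others had 0.386 to 0.465 FPKM. SG 3 was at 0 FPKM for MSTRG.21562.1 of AC096473, where the others had 7.76 to 10.2 FPKM.

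In SHAM, SHAM 1 stood apart in MSTRG.6787.1 of Crp (227 FPKM, others 158 to 174 FPKM) and in MSTRG.9116.1 of Fgl1 (33.4 FPKM, others 18.3 to 19.6 FPKM). SHAM 2 had 0.135 FPKM of MSTRG.10196.1 in Greb1l, where the others were at 0. SHAM 3 had 0.000769 FPKM of MSTRG.2166.156 in AC099449, where the others had 1.83 to 2.55 FPKM.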

How the results depend on the processing

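The count of intronic transcripts that passed between SG and SHAM was 0 in edgeR (72 at an unadjusted p under 0.05), and likewise in limma at both pseudocounts, and in edgeR without a filter, with a filter at a mean of 1 FPKM, with each library left out, with isoforms summed by gene and without both SG 2 and SHAM 5. DESeq2 gave 7. The median log2 fold change, -0.08, ran from -0.10 to -0.05 with 1 library left out and was 0.01 and 0.00066 in limma, so its sign turned there. With the replicate number as a block edgeR gave 0 calls and a median of -0.06. Deviations of same-numbered libraries correlated at -0.03 to 0.04, and only SG 1 and SG 5 correlated best with the SHAM library of their own number. These values do not settle whether the numbers pair the libraries.

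The median rho of 0.35 was 0.31 on TMM-scaled counts and with library medians subtracted, 0.30 with hosts at any level, and 0.26 with hosts from reference and contained isoforms alone. Of the 49 pairs that passed, 12 were among the 14 that passed with those hosts, 34 among the 95 on deviations from group means, and 31 among the 69 on TMM-scaled counts. The count ran from 10 to 33 with 1 library left out and was 1 without both SG 2 and SHAM 5. With library medians subtracted the rho of MSTRG.18401.1 and Jak1 was 0.0061, a turned sign. The median level of 1.15 FPKM was 1.31 FPKM over members above 0 in every library. Fewer libraries enter where some were left out, and otherwise the cause was not tested. Summing isoforms, subtracting library medians and leaving out AC099449 or both SG 2 and SHAM 5 were chosen after seeing the data.

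For single members, 7 log2 fold changes passed in DESeq2 and not in edgeR, and 27 values of rho under single alternatives no longer passed. Low levels and the estimated division of reads among isoforms limit all values.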
